A study of Homo sapiens with 12 samples.

Results

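HSPH1 and 9 other heat shock chaperone genes were followed through MDA-MB-231 breast tumours treated with an inhibitor of the kinase p38, an inhibitor of the histone methyltransferase EZH2, or both. The 10 genes were HSPH1, HSPA1A, HSPA1B, HSPA6, HSPA8, DNAJB1, DNAJA1, HSPB1, HSP90AA1 and HSPE1, taken by symbol from the 25369 gene rows of the count table. They were chosen from the comparison of treated with control tumours in these same libraries, because HSPH1 and HSPA1A were already known to be higher there. Their differences from control are therefore given as a description, with no p-value for any of the 10, and counts of calls stand only beside the share over all genes. All 10 were among the 12514 genes that passed the filter on low counts, and HSPA6 had the lowest counts of the 10 (9 to 110 reads per library).

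Cells of MDA-MB-231, an established human triple-negative breast cancer line, were grown in Matrigel in the mammary fat pad of mice, and dosing by intraperitoneal injection on 5 days a week began when tumours reached 100 mm3. The 4 arms were profiled with 3 libraries each: the combination (SB202190 with EPZ-6438), EZH2i alone (EPZ at 10 mg/kg/day, spelled EPZ-6428 for this arm in the protocol), p38i alone (SB202190 at 1 mg/kg/day), and control (the vehicle of 4% DMSO, 30% PEG 300 and 5% Tween 80). Doses inside the combination are not given apart from the single-agent ones, and neither the length of treatment nor the time from last dose to harvest is stated. Tumour numbers in the titles mark separate tumours, and the strain and age of the mice are not stated. Of the p38i libraries, 1 is tumour 3-3 and the others are called p38i column 5 and p38i column 6, since the labels do not tell which of 2 tumours each holds and column 6 was assigned to p38i by elimination.

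Libraries held 2208771 to 4467942 counts with 16389 to 17549 genes detected. The mesenchymal markers of the line (VIM, CD44, AXL, CAV1 and MSN) summed to between 7166 and 10177 CPM (reads of a gene relative to the library's total reads, scaled by trimmed mean of M values, TMM) in every library. Another 4 genes were listed as low or variable in the line. Of these, the oestrogen receptor gene ESR1 was at most 13.1 CPM and PGR at most 7.16 CPM. EPCAM and KRT18 were clearly present, with up to 101 and 342 CPM in controls. Reads were aligned to the human genome, so reads from mouse stroma with conserved sequence can be counted on human genes. All 12 genes of a skeletal muscle list were above 0 in p38i column 6, where they summed to 1893 CPM against 61.6 to 237 CPM in the other 11 libraries. Some of the p38i values that this library moves are also given without it. In bulk tissue, a change in RNA per cell and a change in the share of cells that express a gene cannot be told apart.

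Heat shock proteins are molecular chaperones: Hsp70 and Hsp90 bind unfolded or client proteins in cycles driven by ATP, J-domain proteins deliver clients to Hsp70 and speed its ATP hydrolysis, and nucleotide exchange factors release the client. HSPH1 (Hsp105 or Hsp110) is a large Hsp70 relative that acts as such an exchange factor, and together with Hsp70 and J-domain proteins it can dissolve protein aggregates. Inducible members of the network are transcribed by heat shock factor 1 (HSF1), which binds repeats of the unit GAA in alternating orientation, called heat shock elements, and many tumours keep this programme partly active.

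Short stretches around such repeats are shown because they are the promoter feature that the chaperone genes are best known to share. RefSeq promoters (GRCh38.p14, 250 bases before to 50 after each annotated start) were searched on both strands for 2 inverted units, GAANNTTC or TTCNNGAA, and for 3 alternating units, GAANNTTCNNGAA or TTCNNGAANNTTC, each of which contains the 2-unit form. All 10 genes had at least 1 promoter in the table, and the deposited counts themselves were made on hg19. Not every match is shown: further 2-unit matches in HSPA6, DNAJB1 and DNAJA1 are left out. The DNAJA1 stretch shown runs from −3 to 21 relative to the annotated start, so its match lies after the start. The DNAJA1 match left out lies before the start. Capitals mark the matched units in the following stretches, written 5′ to 3′ on the strand of the gene.
HSPA1A, chr6:31815431-31815450, plus strand: accctgGAATATTCccgacc
HSPA1B, chr6:31827627-31827646, plus strand: cccctgGAATATTCccgacc
HSPA6, chr1:161524460-161524484, plus strand: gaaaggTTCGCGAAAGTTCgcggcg
HSPA8, chr11:123062348-123062372, minus strand: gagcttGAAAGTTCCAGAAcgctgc
HSPA8, chr11:123062173-123062197, minus strand: ggccccTTCTGGAAGGTTCtaagat
DNAJB1, chr19:14518461-14518480, minus strand: ggggcgGAAGGTTCtggagg
DNAJA1, chr9:33025270-33025294, plus strand: cgggcgGAACTTTCCAGAAcgctcg
HSPB1, chr7:76302485-76302504, plus strand: acgagaGAAGGTTCcagatg
HSP90AA1, chr14:102087099-102087138, minus strand: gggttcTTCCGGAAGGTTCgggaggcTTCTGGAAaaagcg

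A 2-unit match was present in 8 of the 10 genes, against 16.2% of all 27305 genes with a promoter in the table. The 3-unit form was present in HSPA6, HSPA8, DNAJA1 and HSP90AA1, against 0.608% of all genes. In DNAJB1 the match lay in 2 of 3 annotated promoters, and in HSP90AA1 in 1 of 2. HSPA1A and HSPA1B count as 2 genes, although the 250 bases before their starts aligned with 93.6% identity. The 10 were listed as genes of the HSF1 type, so the choice itself favours such matches, and nothing is read from these shares. HSPH1 and HSPE1 held none of these letter patterns within the 300 bases searched. A match describes the letters and is not evidence of binding, and the genes with the 3-unit form did not share 1 expression pattern in the tumours: against control, HSPA6 had the highest and HSPA8 the lowest log2 difference of the 10 in EZH2i tumours.

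HSPH1 was higher in all 9 treated libraries than in any control. It had 195, 211 and 233 CPM in combination tumours 8-1, 9-1 and 9-2, 322, 326 and 312 CPM in EZH2i tumours 5-3, 5-4 and 6-1, 305, 217 and 220 CPM in p38i tumour 3-3 and columns 5 and 6, and 127, 112 and 135 CPM in control tumours 1-1, 1-3 and 2-1. The EZH2i libraries lay closest together, with a coefficient of variation of 2.27%, against 20.1% in p38i tumours, where 3-3 stood above the others, and 9.11% in controls. Relative to control, HSPH1 was 0.77 higher on the log2 scale in combination tumours (SE 0.157), 1.36 higher in EZH2i tumours (SE 0.158) and 0.99 higher in p38i tumours (SE 0.157). Without p38i 3-3 the p38i difference was 0.81.

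**Figure D1:**
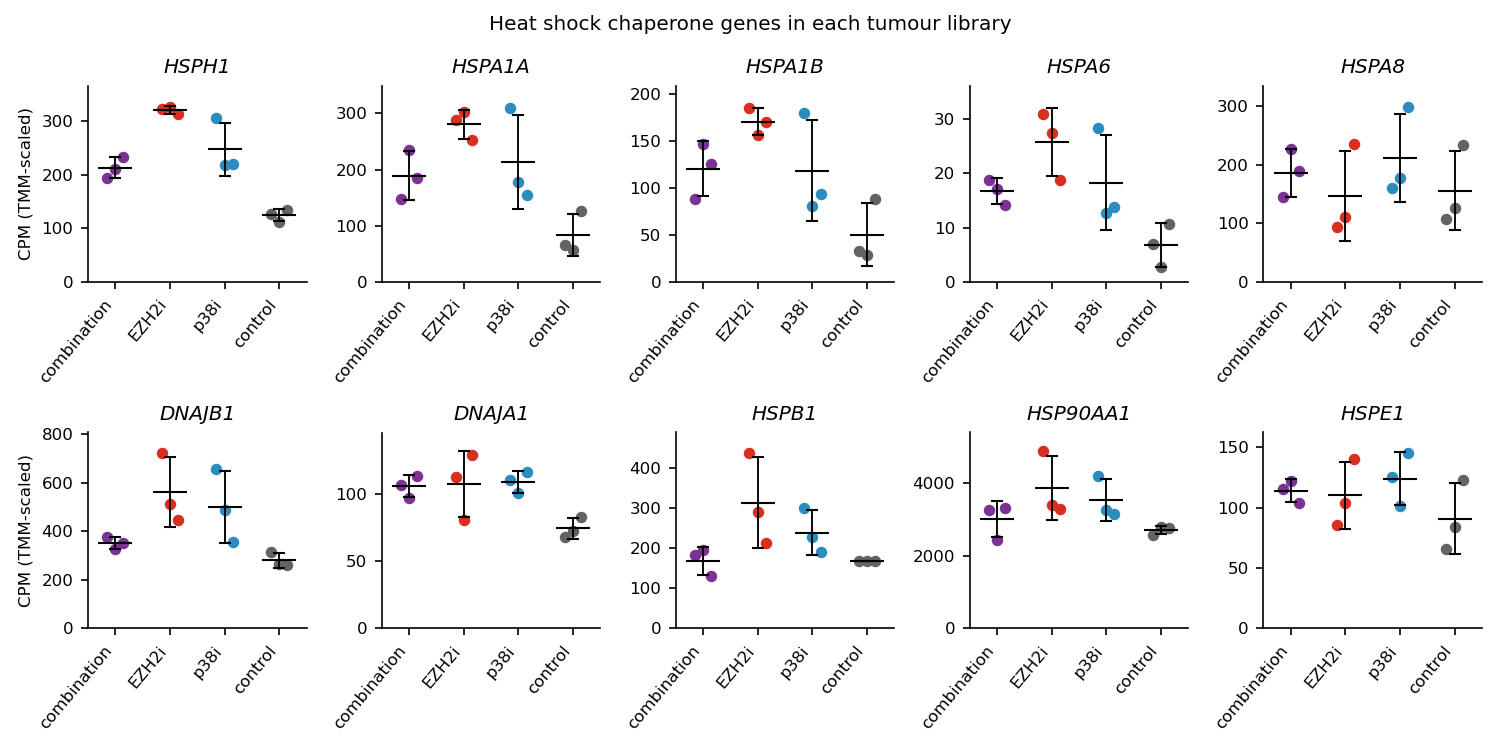
TMM-scaled CPM (linear axis from 0) of the 10 chaperone genes in each library, with combination, EZH2i, p38i and control from left to right; points are libraries, and the bar and whiskers are mean and SD (n = 3). All 9 treated points of HSPH1 lie above the 3 controls, whereas HSPA8 and HSPE1 points of all arms overlap.

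The stress-inducible Hsp70 genes HSPA1A and HSPA1B, neighbours on chromosome 6, encode nearly the same protein. Their longest GENCODE release 29 transcripts aligned with 88.2% identity and contained an identical run of 1715 bases, whereas their last 300 bases aligned with 46.5% identity and no identical run over 8 bases. Since the labels do not settle whether reads come from the whole transcript or its 3′ end, the split of reads between them is uncertain, and their sum is given first. The sum was 236, 381 and 310 CPM in combination tumours, 472, 458 and 422 CPM in EZH2i tumours, 489, 259 and 248 CPM in p38i tumours, and 99.5, 86.2 and 214 CPM in controls. Every treated library lay above every control, although control 2-1 stood well above the other controls and came close to p38i column 6. The summed difference from control was 1.21 in combination (SE 0.339), 1.75 in EZH2i (SE 0.343) and 1.31 in p38i tumours (SE 0.339) on the log2 scale.

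HSPA1A took between 59.5 and 62.5% of the pair's reads in combination, 59.7 and 65.9% in EZH2i, 62.3 and 68.6% in p38i and 58.8 and 66.9% in control tumours. The exact 95% intervals of the highest share (p38i column 5, 65.5 to 71.6%) and the lowest (control 2-1, 55.5 to 62.0%) did not overlap. These libraries were picked as the extremes, which favours such a gap, and the intervals cover counting error only, so nothing is read from it. Taken alone, HSPA1A had 148, 235 and 184 CPM in combination tumours, 288, 302 and 252 CPM in EZH2i tumours, 310, 177 and 154 CPM in p38i tumours, and 66.6, 57.6 and 126 CPM in controls. All treated libraries exceeded the controls. HSPA1B had 88.5, 146 and 126 CPM in combination tumours, 184, 156 and 170 CPM in EZH2i tumours, 180, 81.1 and 93.5 CPM in p38i tumours, and 32.9, 28.5 and 88.4 CPM in controls. The p38i range took in control 2-1, and combination 8-1 exceeded that control by 0.1 CPM or less. Without control 2-1 the HSPA1B difference from control grew to 1.98 in combination, 2.47 in EZH2i and 1.95 in p38i tumours, against 1.24, 1.74 and 1.22 with it. Without p38i 3-3 the p38i difference was 0.79.

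HSPA6, a strictly stress-inducible Hsp70 present in humans but without a mouse orthologue, had 18.8, 17.2 and 14.1 CPM in combination tumours, 30.9, 27.3 and 18.8 CPM in EZH2i tumours, 28.3, 12.7 and 13.7 CPM in p38i tumours, and 7.08, 2.70 and 10.7 CPM in controls. The treated libraries again all lay above the controls, with log2 differences of 1.27 in combination (SE 0.412), 1.89 in EZH2i (SE 0.411) and 1.38 in p38i tumours (SE 0.412). Control 1-3, the lowest, rested on 9 reads.

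The constitutive Hsp70 gene HSPA8 (Hsc70), which folds new proteins in unstressed cells, followed none of this. It had 145, 227 and 189 CPM in combination tumours, 94.3, 111 and 236 CPM in EZH2i tumours, 161, 179 and 299 CPM in p38i tumours, and 107, 127 and 233 CPM in controls. EZH2i 6-1, p38i column 6 and control 2-1 stood well above the rest of their groups, and the groups overlapped. The log2 differences from control were 0.26 in combination (SE 0.380), −0.10 in EZH2i (SE 0.383) and 0.44 in p38i tumours (SE 0.380). Without p38i column 6 the p38i difference was 0.12.

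Among the J-domain genes, DNAJB1 (Hsp40), the main stress-induced partner of Hsp70 and a feedback regulator of HSF1, had 377, 327 and 352 CPM in combination tumours, 723, 511 and 447 CPM in EZH2i tumours, 654, 488 and 356 CPM in p38i tumours, and 316, 264 and 262 CPM in controls. Treated libraries lay above the controls in each arm, but the lowest combination library exceeded the highest control by a small margin. The log2 difference from control was 0.33 in combination (SE 0.214), 1.00 in EZH2i (SE 0.215) and 0.83 in p38i tumours (SE 0.215). The p38i difference of DNAJB1 was 0.59 without p38i 3-3 and 1.04 without p38i column 6. DNAJA1, a farnesylated J-domain protein of the cytosol, had 107, 96.9 and 113 CPM in combination tumours, 112, 80.8 and 128 CPM in EZH2i tumours, 110, 100 and 116 CPM in p38i tumours, and 67.8, 72.1 and 82.7 CPM in controls. Only EZH2i 5-4 reached down into the control range, and the 3 log2 differences from control were nearly equal, at 0.50, 0.52 and 0.55 in combination, EZH2i and p38i tumours (SE 0.172 to 0.173).

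HSPB1 (Hsp27), a small heat shock protein that holds unfolding proteins and is phosphorylated downstream of p38 through the kinase MK2, had 182, 195 and 129 CPM in combination tumours, 436, 290 and 213 CPM in EZH2i tumours, 299, 227 and 190 CPM in p38i tumours, and 169, 168 and 169 CPM in controls. Both single-agent arms lay above the controls, and the combination libraries fell on either side of them. Its log2 difference from control was 0.001 in combination (SE 0.239), 0.89 in EZH2i (SE 0.240) and 0.50 in p38i tumours (SE 0.239). The p38i difference was 0.31 without p38i 3-3 and 0.65 without p38i column 6.

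HSP90AA1, the inducible cytosolic Hsp90, had 3268, 2452 and 3327 CPM in combination tumours, 4884, 3410 and 3307 CPM in EZH2i tumours, 4203, 3265 and 3152 CPM in p38i tumours, and 2590, 2797 and 2780 CPM in controls. The single-agent libraries lay above the controls and combination 9-1 lay below them. Its log2 difference from control was 0.15 in combination (SE 0.185), 0.51 in EZH2i (SE 0.185) and 0.38 in p38i tumours (SE 0.185). Without EZH2i 5-3 the EZH2i difference was 0.32, and without p38i 3-3 the p38i difference was 0.24. HSPE1 (Hsp10), the co-chaperonin of the mitochondrial matrix, overlapped with control in all arms, with 104 to 122 CPM in combination, 85.4 to 141 CPM in EZH2i, 102 to 145 CPM in p38i and 65.4 to 123 CPM in control tumours.

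**Figure D2:**
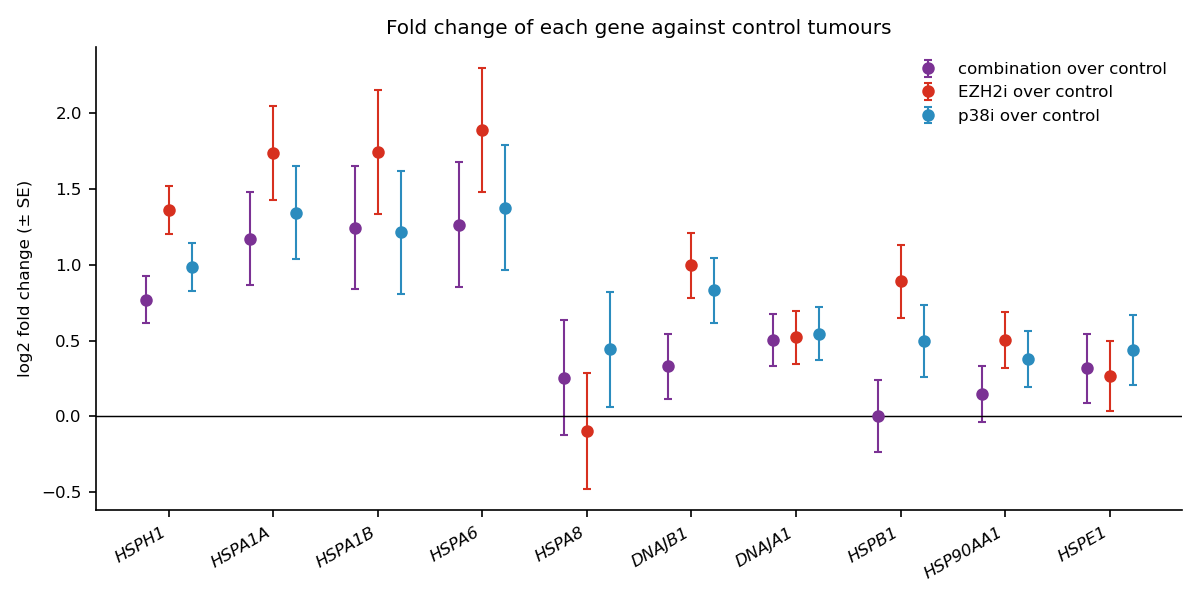
Log2 fold change against control (points) with its standard error (whiskers) from the fit over all genes, for combination, EZH2i and p38i tumours, gene by gene. The EZH2i point is the highest of the 3 for HSPH1, HSPA1A, HSPA1B, HSPA6, DNAJB1, HSPB1 and HSP90AA1, and the HSPA8 whiskers are among the widest in each arm, with its EZH2i point just below 0.

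Counted over the 10 genes against control, combination libraries lay above all controls in 6, EZH2i libraries in 7 and p38i libraries in 7. The same held for 10.7%, 8.32% and 12.3% of all 12514 genes in combination, EZH2i and p38i tumours. In edgeR's quasi-likelihood test with Benjamini-Hochberg adjustment over all genes, 0 of the 10 were called higher in combination tumours (0% of all genes), 2 in EZH2i tumours (0.0879% of all genes) and 2 in p38i tumours (0.655%). The 2 were HSPH1 and HSPA1A in both single-agent arms. Both were already known to be higher there when the list was chosen, so their calls are no independent support. An unadjusted p under 0.05 was reached by 5 of the 10 in combination, 8 in EZH2i and 6 in p38i tumours (16.3%, 14.7% and 18.4% of all genes). In combination tumours DESeq2 called 3 of the 10 higher and 72 of all genes, and limma-voom called 0 of both. These contrasts chose the genes, and nothing is read from the counts. With HSPA1A and HSPA1B summed, HSPH1 alone was called in each single-agent arm, with 9 of all genes called higher in EZH2i and 80 in p38i tumours. Leaving out control 2-1 raised the counts to 3, 4 and 4 in combination, EZH2i and p38i tumours, with 123, 42 and 249 of all genes called higher. The p38i count was 0 without p38i 3-3, without p38i column 6 or without control 1-3. In those fits 0, 1 and 0 of all genes were called higher in p38i tumours.

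The 3 comparisons among treated arms did not define the list, although their libraries also stand in the comparisons with control that did. Between EZH2i and p38i tumours, HSPH1 was 0.37 higher on the log2 scale with EZH2i (SE 0.155, 95% interval 0.07 to 0.68), and the EZH2i libraries lay above the p38i ones. This did not pass over all genes (edgeR adjusted p = 0.998), and 3.60% of all genes were likewise separated upward. Its value was 0.28 without p38i column 5 and 0.55 without p38i 3-3. The other 9 genes overlapped, with log2 differences between −0.54 (HSPA8) and 0.53 (HSPA1B). None of the 10 was called with edgeR (0% of all genes), DESeq2 or limma-voom. An unadjusted edgeR p under 0.05 was reached by 1 of the 10, beside 3.4% of all genes.

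Combination tumours set against EZH2i tumours showed lower values in 8 of the 10 genes, of which 6 did not overlap (3.77% of all genes lay lower without overlap). Over all genes, 47.7% of the log2 differences were above 0. HSPB1 was 0.89 lower on the log2 scale in combination tumours (a log2 fold change of −0.89, SE 0.240, 95% interval −1.36 to −0.42), DNAJB1 0.67 lower (−0.67, SE 0.214, interval −1.09 to −0.25) and HSPH1 0.59 lower (−0.59, SE 0.155, interval −0.89 to −0.29). The others without overlap were HSPA6 (−0.62), HSPA1A (−0.57) and HSPA1B (−0.50), and for HSPA6 the gap between the groups was under 0.1 CPM. Without EZH2i 5-3 the HSPB1 value was −0.59, and without combination 8-1 the HSPA1B value was −0.32. None passed over all genes (edgeR adjusted p = 0.991 for each of the 6, with 0% of all genes called), and DESeq2 and limma-voom called none of the 10. An unadjusted edgeR p under 0.05 was reached by 3 of the 10, beside 3.12% of all genes. The choice of genes that were high in EZH2i tumours itself favours a lower value in any arm set against EZH2i.

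Combination and p38i tumours lay closer together. Of the 10 log2 differences 9 were below 0, down to −0.50 for DNAJB1 (SE 0.213, 95% interval −0.92 to −0.09, edgeR adjusted p = 0.613) and −0.50 for HSPB1 (SE 0.239, interval −0.96 to −0.03, edgeR adjusted p = 0.646), while HSPA1B was at 0.03. Over all genes, 51.4% of the log2 differences were above 0. The choice of genes that were high in p38i tumours likewise favours a lower value in any arm set against p38i. All 10 chaperone genes overlapped between the arms. HSPH1 differed by −0.22 (SE 0.155, 95% interval −0.52 to 0.09, edgeR adjusted p = 0.769), and leaving out single p38i libraries turned several signs. Without p38i 3-3, HSPA1A was at 0.19, HSPA1B at 0.46 and HSPA6 at 0.34, and the values of DNAJB1 and HSPB1 shrank to −0.26 and −0.30. Without p38i column 6, HSPA8 was at 0.15, HSPE1 and DNAJA1 at 0.01 and HSPA1B at −0.12. In that fit DNAJB1 fell to −0.69, HSPB1 to −0.64 and HSPA1A to −0.36. None of the 10 was called with edgeR (0% of all genes), DESeq2 or limma-voom. An unadjusted edgeR p under 0.05 was reached by 1 of the 10, beside 7.81% of all genes.

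If the effects of the single agents had added on the log2 scale, combination minus EZH2i minus p38i plus control would be 0. For HSPH1 it was −1.58 (SE 0.221), and it stayed between −1.68 and −1.40 when each library was left out. The value was below 0 for all 10 genes: −2.0 for HSPA6 (SE 0.560), −1.91 for HSPA1A, −1.71 for HSPA1B, −1.50 for DNAJB1, −1.39 for HSPB1, −0.74 for HSP90AA1, −0.56 for DNAJA1, −0.39 for HSPE1 and −0.09 for HSPA8, whose sign turned in some alternatives. Over all genes tested the median of this quantity was −0.006. Genes chosen for being high in both single-agent arms are pushed to negative values of this quantity, so it is given without a test.

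Direct partners of HSPH1 and the heat shock factors differed less from control in their means than HSPH1 itself did. HSF1 averaged 10.6 ± 1.5 CPM in combination, 10.9 ± 2.42 in EZH2i, 13.2 ± 2.93 in p38i and 8.93 ± 0.939 in control tumours (SD, n = 3). Its p38i libraries (11.2 to 16.6 CPM) all lay above the controls (8.11 to 9.95 CPM), as did those of 12.3% of all genes. Its combination and EZH2i libraries overlapped with control. HSF2, a related factor, averaged 110 ± 8.23, 140 ± 27.5, 120 ± 15.2 and 126 ± 13.1 CPM in combination, EZH2i, p38i and control tumours. BAG3, an HSF1 target and Hsp70 co-chaperone, lay between 77.7 and 158 CPM in combination, 67.9 and 118 in EZH2i and 57.4 and 126 in p38i tumours, and spread from 51.6 to 195 CPM among the controls.

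The Hsp110 relatives of HSPH1 had another order of means. HSPA4L (Apg-1) averaged 18.6 ± 3.17 CPM in combination, 23.6 ± 1.09 in EZH2i, 27.0 ± 1.38 in p38i and 18.2 ± 2.19 in control tumours (SD, n = 3). It was 0.54 lower on the log2 scale in combination than in p38i tumours (−0.54, SE 0.193, edgeR adjusted p = 0.582) with no overlap. Of all 12514 genes tested, 1024 likewise lay lower without overlap. HSPA4L libraries of both single-agent arms lay above the controls, as did those of HSPH1 (for HSPA4L, at least 22.4 CPM in EZH2i and 25.4 CPM in p38i, against at most 20.1 CPM in control tumours). The same held for 8.32% of all genes in EZH2i and 12.3% in p38i tumours. HSPA4 (Apg-2) averaged 114 ± 23.5, 136 ± 17.9, 154 ± 10.6 and 113 ± 9.75 CPM in combination, EZH2i, p38i and control tumours. Its p38i libraries (147 to 166 CPM) also lay above the controls (106 to 124 CPM). Its EZH2i libraries (117 to 153 CPM) overlapped with both. HYOU1, their relative in the endoplasmic reticulum, lay between 91.5 and 167 CPM everywhere and overlapped in all 6 comparisons. For both HSPA4L and HSPA4 the p38i mean was the highest, whereas for HSPH1 it was the EZH2i mean.

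The 4 lists of other chaperone genes gave no called gene in any of the 6 comparisons with edgeR. They were HSF1-linked co-chaperones and stress targets (27 of 30 tested), other cytosolic chaperones (13 of 19), endoplasmic reticulum chaperones (18 of 18) and mitochondrial chaperones and proteases (9 of 11). Against control, the median log2 fold change of the HSF1-linked list was 0.12 in combination, 0.29 in EZH2i and 0.24 in p38i tumours, beside 0.42, 0.95 and 0.69 for the 10 genes and values within 0.01 of 0 for all genes tested. In that list, 18, 23 and 17 of 27 genes were above 0 in combination, EZH2i and p38i tumours, beside 50.4%, 51.0% and 49.9% of all genes. An unadjusted p under 0.05 was reached by 11.1%, 29.6% and 25.9% of the list in these arms, beside 16.3%, 14.7% and 18.4% of all genes.

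Within that list CHORDC1, a co-chaperone of Hsp90, averaged 61.7 ± 9.13 CPM in combination, 71.2 ± 4.23 in EZH2i, 59.8 ± 15 in p38i and 37.4 ± 7.95 in control tumours (SD, n = 3; edgeR adjusted p against control 0.192, 0.0910 and 0.112). CACYBP averaged 157 ± 22.7, 167 ± 38.2, 165 ± 12.2 and 103 ± 14.8 CPM in the same order (edgeR adjusted p against control 0.193, 0.124 and 0.0754). These 2 were named after their values were seen. In combination against EZH2i tumours the list medians were −0.17 (HSF1-linked), −0.19 (other cytosolic), −0.13 (endoplasmic reticulum) and 0.01 (mitochondrial), beside −0.53 for the 10 genes and −0.02 for all genes.

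**Figure D3:**
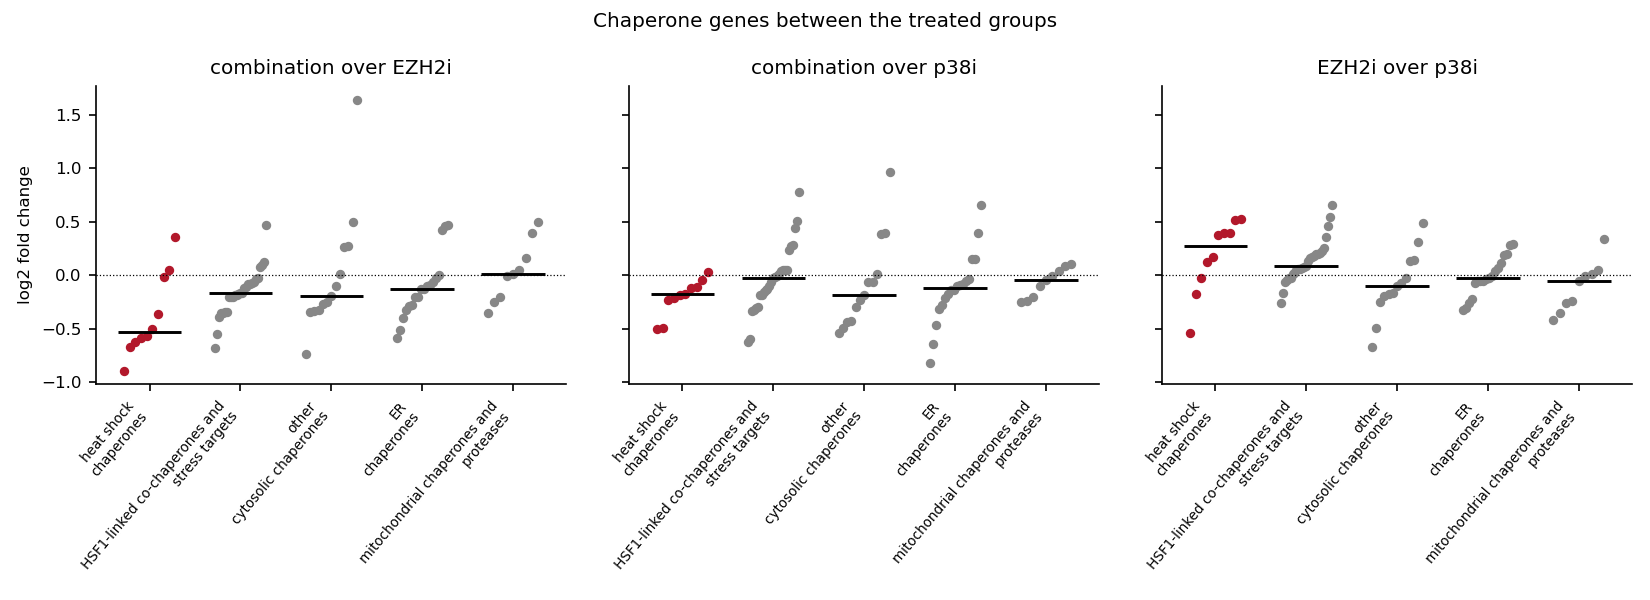
Log2 fold change between treated arms for the 10 heat shock chaperones (red) and 4 other chaperone lists (grey), with the list median as a black line; panels are combination over EZH2i, combination over p38i and EZH2i over p38i. The median of the 10 genes is −0.53, −0.18 and 0.27 in these panels, and the other list medians lie between −0.19 and 0.08.

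A pair of state lists were read beside the chaperones. Immediate early genes, among the first transcribed after a stimulus, summed to 1856 to 1924 CPM in combination, 1764 to 2010 in EZH2i, 1670 to 2468 in p38i and 1655 to 1867 CPM in control tumours. KLF6 and JUN, at 996 and 378 CPM on average in controls, weighed most in that sum. Of the 8 immediate early genes tested, 7, 7 and 8 were above 0 against control in combination, EZH2i and p38i tumours (median log2 fold change 0.67, 0.35 and 0.55). An unadjusted edgeR p under 0.05 was reached by 4, 2 and 4 of these 8, beside 16.3%, 14.7% and 18.4% of all genes. The 14 G2/M genes summed to 2170 to 2951, 2188 to 3247 and 2129 to 3912 CPM in combination, EZH2i and p38i tumours, and 1304 to 2213 CPM in controls, with all 14 genes above 0 against control in each arm (median log2 fold change 0.69, 0.73 and 0.74). Of the 14, edgeR called BUB1 in p38i tumours and 0 in the other arms, with an unadjusted p under 0.05 for 9 in combination, 9 in EZH2i and 13 in p38i tumours. Control 2-1 was the highest control for both lists and for HSPH1, HSPA1A, HSPA1B and HSPA6. The part of either state in the chaperone values was not tested.

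Across the 12 libraries the 10 genes fell into unlike patterns of covariation, given here as a description, since the libraries share their arms and the genes were chosen from them. HSPH1 correlated most closely among them with HSPA1A (Pearson r 0.94 and Spearman rho 0.91 of log2 CPM), HSPA1B (r 0.90) and HSPA6 (r 0.90), followed by DNAJB1 (r 0.85). HSPA8 showed no relation to HSPH1 (r −0.003) and paired with HSPE1 (r 0.81). After the mean of each arm was subtracted, r with HSPH1 was 0.79 for HSPA1A, 0.77 for HSPA1B, 0.70 for HSPA6 and 0.52 for DNAJB1. For DNAJA1 it dropped from 0.71 to 0.08. On this measure HSPA8 and HSPE1 still varied together (r 0.86), as did DNAJB1 with HSPB1 (r 0.78) and HSP90AA1 (r 0.77). HSPA8 and DNAJB1 varied in opposite directions (r −0.77). The libraries highest in HSPA8 were p38i column 6, EZH2i 6-1 and control 2-1, and p38i column 6 and EZH2i 6-1 were also the highest in HSPE1.

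**Figure D4:**
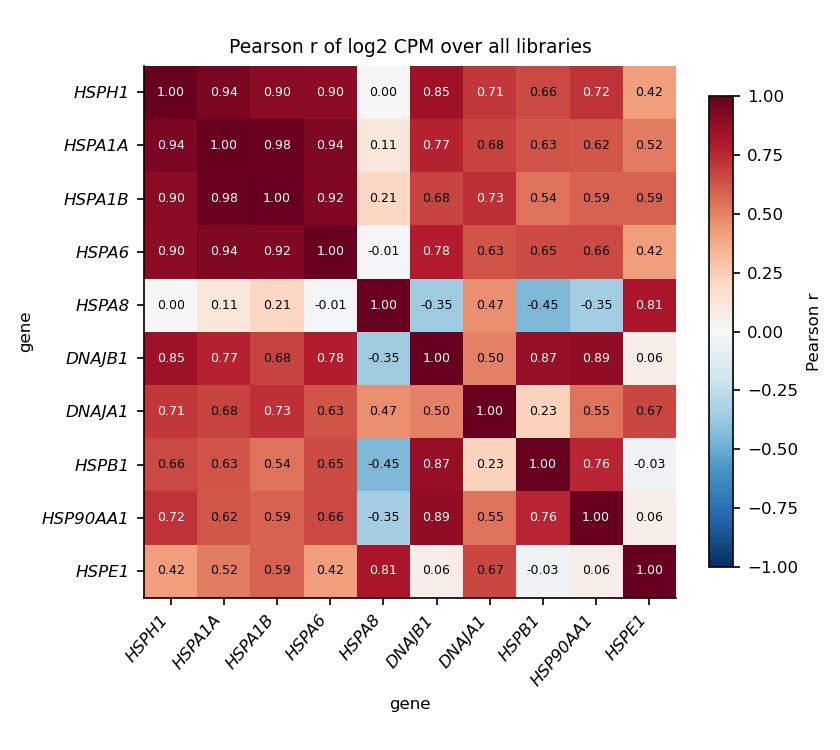
Pearson r of log2 CPM between each pair of the 10 genes over the 12 libraries (colour scale from −1 to 1, value printed in each cell). HSPH1, HSPA1A, HSPA1B and HSPA6 form a block with r between 0.90 and 0.98 after rounding, while HSPA8 correlates with HSPE1 (0.81) and not with HSPH1.

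Other genes were ranked by the same measure among 10761 genes with a mean of at least 5 CPM, of which 5% had r above 0.651. The 8 with the highest r with HSPH1 outside the 10 were CSRP2 (0.93), BTG1 (0.92), ST3GAL6 (0.92), TMEM65 (0.91), CXCR4 (0.91), SLC5A3 (0.91), ADAMTS6 (0.90) and STAM (0.89). CSRP2, which encodes a LIM domain protein, averaged 36.4 ± 4.14 CPM in combination, 48.5 ± 10.8 in EZH2i, 46.8 ± 16.8 in p38i and 16.1 ± 3.32 in control tumours (SD, n = 3). BTG1, an antiproliferative gene, averaged 971 ± 128, 1162 ± 132, 996 ± 121 and 764 ± 15.5 CPM in combination, EZH2i, p38i and control tumours. CXCR4, the chemokine receptor, averaged 148 ± 74.5, 202 ± 29.7, 193 ± 13.9 and 64.5 ± 4.35 CPM in the same order. Ranking by r with HSPH1 selects genes with such an order of means, and in ADAMTS6 the p38i mean (67.6 CPM) was above the EZH2i mean (64.4 CPM).

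With arm means subtracted, the list changed and 5% of genes had r above 0.482. The 8 highest were then SLC2A1 (0.91), RNF217 (0.91), RYBP (0.88), ERO1L (0.88), ADM (0.87), SNAPC1 (0.86), PTPRR (0.84) and CNPY2 (0.84). SLC2A1, the glucose transporter GLUT1, averaged 538 ± 20.6 CPM in combination, 538 ± 29.6 in EZH2i, 466 ± 147 in p38i and 336 ± 26.9 in control tumours (SD, n = 3). In p38i tumours SLC2A1 spread from 361 to 635 CPM, ERO1L from 173 to 317 CPM and ADM from 123 to 486 CPM. The wide spread of HSPH1 in that arm (217 to 305 CPM) was set by 3-3. Tumour 3-3 therefore weighs heavily in this ranking, which was not repeated without it. CSRP2, the nearest gene over all libraries, had r 0.74 on this measure.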

How the data were processed

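Per the submitters' processing notes, the tools named are Trim Galore 0.5.0, a read trimmer, and STAR 2.6.0, a spliced aligner, and the genome build is hg19. The tool that counted reads per gene, its handling of reads that map to several places and its use of strand are not given in the sources used here. Per the labels' protocols, a SMARTer mRNA kit and QuantSeq are both named for the libraries, so whether counts scale with transcript length is unknown, and levels are not compared between genes. The deposited table holds the authors' raw counts per gene, not normalized, with 3 rows that name no gene and hold 0 counts.

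Samples were grouped by their titles and joined to columns by the column number in their descriptions; 2 p38i samples name column 5 and none names column 6. Counts were scaled by TMM and tested with edgeR 4.0.16 (filterByExpr, glmQLFit with the robust option, glmQLFTest, two-sided) in R 4.3.3, with all 12 libraries in 1 fit and Benjamini-Hochberg adjustment over 12514 genes at a threshold of 0.05. Log2 CPM used a prior count of 2, and 95% intervals use the normal approximation. Alternatives used limma-voom (limma 3.58.1) and DESeq2 1.42.0, and the steps were tested on simulated data. Promoter sequences are those of RefSeq. HSPA1A and HSPA1B were aligned with Biopython 1.88. P-values measure the spread between single tumours. Intervals on shares of reads cover counting error only.

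The 10 genes and the other lists were chosen with earlier results of these data known. Named genes are the 10, their sum HSPA1A and HSPA1B, called genes of the 4 chaperone lists (there were none), HSPA4, HSPA4L, HYOU1, HSF1, HSF2 and BAG3, and the 8 genes with the highest Pearson r with HSPH1, with and without arm means subtracted. CHORDC1, CACYBP, BUB1 and the examples among the 8 were picked after their values were seen.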

Additional observations from a re-analysis of the deposited data

How the results depend on the processing

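The number of the 10 genes called against control depended on the settings. In combination tumours it was 0, but 1 with no filter on low counts and 3 with DESeq2, and 0 to 3 when each library was left out in turn. In EZH2i tumours it was 2, but 6 with DESeq2, 1 with HSPA1A and HSPA1B summed, 1 when only the 2 arms compared were fitted, and 1 to 4 over the left-out libraries. In p38i tumours it was 2, but 5 with DESeq2, 1 with the pair summed, 1 with only the compared arms, and 0 to 4 over the left-out libraries. With no filter HSPA1A was not among the called genes in either single-agent arm: the EZH2i count was 3 (HSPH1, HSPA6 and DNAJB1) and the p38i count 2 (HSPH1 and DNAJB1). With library totals alone the p38i count was 3, DNAJB1 being the addition. Apart from the summed pair, which puts HSPA1A and HSPA1B into 1 row, the cause was not tested. For combination minus EZH2i minus p38i plus control, HSPH1 ranged from −1.68 to −1.40 over the left-out libraries, with the value nearest 0 without p38i 3-3. Among the arms that received an inhibitor, 0 of the 10 genes were called in each of the 3 comparisons under every alternative run, leaving out each library included. Of 1453 recomputed log2 values of single genes, 1417 kept their sign, and none of the others was a called difference. Over all genes, the counts called higher than control in combination, EZH2i and p38i tumours were 0, 11 and 82 with edgeR, 72, 104 and 280 with DESeq2 and 0, 5 and 56 with limma-voom. Over the left-out libraries the edgeR counts ranged from 0 to 123, 1 to 42 and 0 to 249 in the same arms. With no filter they were 22, 50 and 127. Library totals alone gave 1, 10 and 102, the summed pair 0, 9 and 80, and only the compared arms 1, 2 and 89. Between 9 and 110 reads behind HSPA6 limit its precision. No paired analysis was possible because the tumour numbers in the titles differ between arms.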
